A study of Sus scrofa with 2 samples.

Results

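The genes of the first complement component and of the central complement protein were followed across the cell classes of pig skin. Members were the genes named C1QA, C1QB, C1QC, C1R, C1S and C3, taken by these names. Of these 6 names, 4 (C1QA, C1QB, C1QC and C3) had a row among the 31908 genes of the deposited feature tables, and C1R and C1S were not analysed here. The study asked how far cryopreservation alters the single-cell profile of skin, with 1 library of freshly isolated cells (title "fresh skin cells", treatment "none") and 1 library of thawed cells (title "frozen skin cells", treatment "frozen"). Full-thickness dorsal skin of healthy young male farm pigs was dissociated with enzymes, cells for storage were frozen in serum with 10% DMSO, and dead cells were removed by flow sorting before the droplet libraries were made. Genotype, strain and an exact age were not given in the sources used here, nor whether both libraries came from 1 animal, and the extraction protocol of the fresh library also mentions freezing and thawing. With 1 library per condition no replicate spread could be measured, so every interval below is a 95% interval for counting error only and no test between conditions was made.

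Complement is a cascade of blood and tissue proteins that marks microbes, immune complexes and dying cells. C1q, assembled from the A, B and C chains encoded by C1QA, C1QB and C1QC, is the recognition unit of the classical pathway, and the serine proteases C1r and C1s bound to it cut C4 and C2. C3, on which all the pathways converge, is cut into C3a, which signals through its receptor, and C3b, which coats surfaces. Most plasma C3 is made by the liver, whereas tissue macrophages and dendritic cells are known sources of C1q, and fibroblasts can make several complement proteins locally.

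The C1q chain genes are neighbours, and the bases just before them are shown because the 3 chains were found in the same cells. On the Sscrofa11.1 build (RefSeq annotation) C1QA (ENSSSCG00000003524) lies at chr6:80586259-80589213, C1QC (ENSSSCG00000038706) at chr6:80592591-80597464 and C1QB (ENSSSCG00000033512) at chr6:80601680-80606076, all on the plus strand. The gaps were 3377 bases between C1QA and C1QC and 4215 bases between C1QC and C1QB, and no other annotated gene lay between the first and the last of them. The 250 bases upstream of each annotated start, at chr6:80586009-80586258 for C1QA, chr6:80601430-80601679 for C1QB and chr6:80592341-80592590 for C1QC, read as follows from 5′ to 3′ on the plus strand, with matches to the searched motifs in capitals.
C1QA: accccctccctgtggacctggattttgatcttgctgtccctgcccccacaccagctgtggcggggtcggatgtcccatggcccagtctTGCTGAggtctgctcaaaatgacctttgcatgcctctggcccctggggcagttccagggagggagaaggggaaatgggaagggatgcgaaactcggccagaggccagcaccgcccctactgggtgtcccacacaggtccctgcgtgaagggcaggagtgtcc
C1QB: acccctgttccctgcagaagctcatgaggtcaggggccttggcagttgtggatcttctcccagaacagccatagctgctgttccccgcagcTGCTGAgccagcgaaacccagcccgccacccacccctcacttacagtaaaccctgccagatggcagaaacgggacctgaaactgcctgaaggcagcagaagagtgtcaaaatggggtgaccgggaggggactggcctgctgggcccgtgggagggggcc
C1QC: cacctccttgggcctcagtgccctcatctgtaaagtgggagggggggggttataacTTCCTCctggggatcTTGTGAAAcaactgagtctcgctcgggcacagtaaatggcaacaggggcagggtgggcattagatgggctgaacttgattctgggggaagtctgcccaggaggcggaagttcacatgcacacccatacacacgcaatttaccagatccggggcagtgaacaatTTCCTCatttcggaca
The motifs searched, on both strands, were GAGGAA (the core bound by PU.1, the master factor of myeloid cells), TCAGCA (part of the MARE site bound by MAF factors), TTCNNNGAA (the GAS site bound by STAT factors) and TTNNGNAA (the C/EBP site). C1QA and C1QB each held 1 TCAGCA match, read as TGCTGA on this strand, which started 162 bases before the C1QA start and 159 bases before the C1QB start. C1QC held GAGGAA at 2 places, starting 194 and 16 bases before its start, and TTNNGNAA at 1 place, 179 bases before it. Among 19569 upstream windows of the same length, TCAGCA was found in 12.6%, GAGGAA in 22.0%, TTNNGNAA in 31.7% and TTCNNNGAA in 6.12%, so single matches are common. A match here is a run of letters and not a measured binding site.

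C3 (ENSSSCG00000013551) lies on another chromosome at chr2:72431470-72471622 on the plus strand, spans 40153 bases and has 40 to 41 exons, against 2 to 4 exons for the C1q chains. Its upstream window at chr2:72431220-72431469 is given for comparison with those of the C1q chains.
C3: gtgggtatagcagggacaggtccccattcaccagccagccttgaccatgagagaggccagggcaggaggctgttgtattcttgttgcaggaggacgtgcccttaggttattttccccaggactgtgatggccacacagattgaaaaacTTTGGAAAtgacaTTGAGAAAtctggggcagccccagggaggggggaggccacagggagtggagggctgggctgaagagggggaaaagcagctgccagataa
This window held 2 matches to TTNNGNAA, starting 102 and 89 bases before the start, and none to the other motifs. The annotation places C1R at chr5:63644097-63655149 (plus strand) and C1S at chr5:63670309-63681466 (minus strand).

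The libraries held 53271738 (fresh) and 42217632 (cryopreserved) UMIs, that is, counted molecules, in 4379 and 4860 barcodes. After the maxima on genes, UMIs and mitochondrial share stated in the study's methods, 2775 and 4223 cells remained, with medians of 11017 and 7945 UMIs. The libraries shared 6 barcodes, of which 5 were kept in both. Cells were clustered with the complement genes left out, so that no member helped to define a cluster. All but 1 of 25 clusters were given to 10 classes named from listed markers, by a rule set after a first look at the clusters. The macrophage-like class (140 fresh and 235 cryopreserved cells) had UMIs of all 8 of its markers, with a summed level of 6868 and 8160 CPM (the gene's share of all UMIs of the class, on the usual CPM scale), against 14.1 and 11.8 CPM in T or NK-like cells and 259 and 200.5 CPM in fibroblast-like cells. The other myeloid classes came closer, with 1983 and 1303 CPM in MARCO myeloid-like and 894 and 723 CPM in dendritic-like cells. The names were rebuilt here and may differ from those of the study.

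C1QA, C1QB and C1QC were highest in the macrophage-like class in both libraries. C1QA, which encodes the A chain, stood at 5364 CPM (interval 5241 to 5489) in fresh and 6524 CPM (6410 to 6640) in cryopreserved macrophage-like cells. C1QB, for the B chain, stood at 4275 CPM (4166 to 4386) and 6567 CPM (6453 to 6684). C1QC, for the C chain, stood at 2915 CPM (2825 to 3007) and 4048 CPM (3958 to 4140). C1QC was thus the lowest chain in both libraries, while C1QA exceeded C1QB in fresh cells only and the intervals of these chains overlapped in cryopreserved cells. The counts behind these levels ran from 3958 to 7284 UMIs in the fresh and from 7698 to 12489 UMIs in the cryopreserved library. Because 3′ reads are counted once per molecule, these counts were not divided by gene length.

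**Figure D1:**
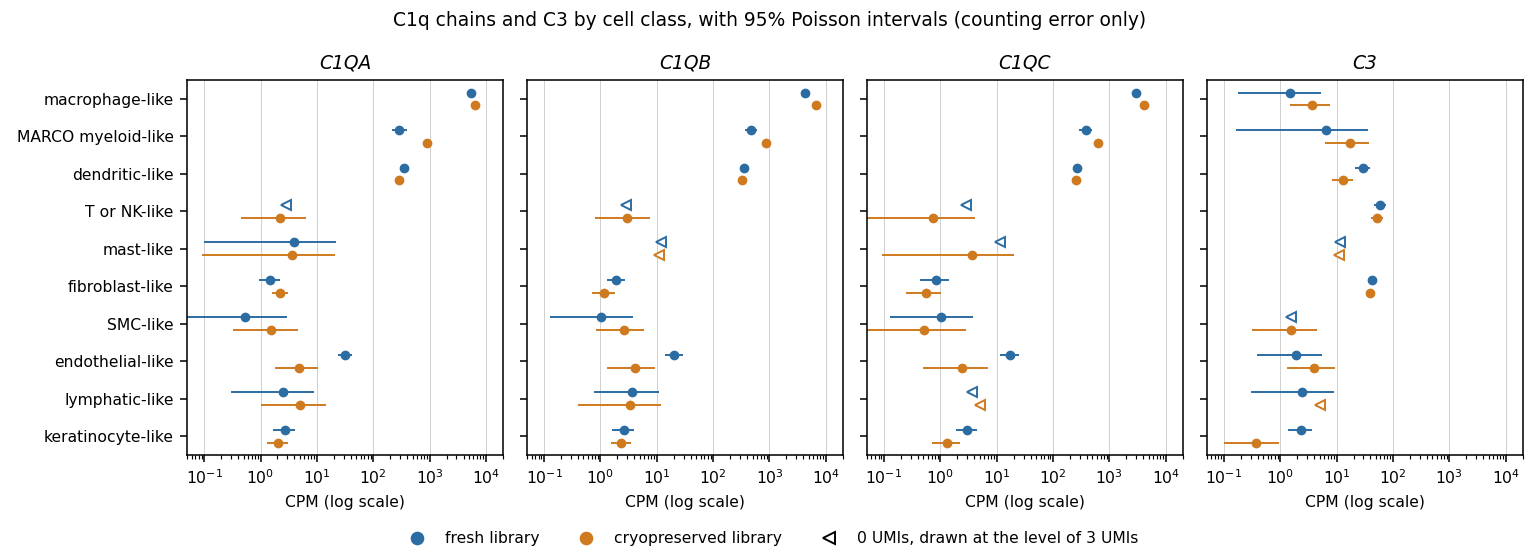
Level of each member in the named cell classes of both libraries, as CPM on a log axis with 95% Poisson intervals for counting error; an open triangle marks 0 UMIs and sits at the level that 3 UMIs would give. The C1q chains peak in macrophage-like cells (2915 to 6567 CPM), whereas C3 is highest in T or NK-like (59.2 and 53.1 CPM) and fibroblast-like cells (42.2 and 39.7 CPM).

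Outside the myeloid classes the C1q chains were low, at no more than 5.01 CPM each in every class and library except fresh endothelial-like cells. In fibroblast-like cells, the largest class, C1QA stood at 1.46 CPM (23 UMIs, fresh) and 2.25 CPM (37 UMIs, cryopreserved). C1QB stood there at 1.90 and 1.16 CPM, and C1QC at 0.824 and 0.547 CPM. T or NK-like cells held 0 UMIs of each chain in the fresh library, which allows up to 2.82 CPM, and 3, 4 and 1 UMIs of C1QA, C1QB and C1QC in the cryopreserved library. The C1q of fresh endothelial-like cells, 69.5 CPM for the chains together, lay almost wholly in 1 of 201 cells, which held 92.7% of it, and without the 5 cells richest in C1q the class stood at 2.65 CPM. In the fresh keratinocyte-like class 1 of 530 cells held 89.1% of the C1q UMIs, and that cell was among the 6% with the highest doublet scores.

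Set against fibroblast-like cells of the same library, macrophage-like cells had C1QA levels 3679-fold (2450 to 5807) higher in the fresh and 2899-fold (2102 to 4119) higher in the cryopreserved library. For C1QB the ratios were 2248 (1573 to 3334) and 5683 (3637 to 9442). For C1QC they were 3536 (2066 to 6648) and 7395 (3893 to 16178), from only 13 and 9 UMIs in fibroblast-like cells. All 3 chains were past a 2-fold difference in this direction in both libraries, as were 18.0% of the 10888 genes counted in the fresh and 16.6% of the 10964 in the cryopreserved library. The median log2 ratio over all these genes was -0.06 and -0.12, and it moved to -0.29 and -0.31 with edgeR's TMM factors, a shift far below the log2 ratios of 11.13 to 12.85 of the chains.

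Most C1q RNA in the kept cells belonged to macrophage-like cells. This class held 89.5% of all C1q UMIs with 5.05% of the cells in the fresh library, and 92.5% with 5.57% of the cells in the cryopreserved library. Dendritic-like cells held 8.26% and 4.67%, and fibroblast-like cells, with 43.7% and 37.2% of the cells, held 0.347% and 0.184%. The order of the top classes for the chains together was macrophage-like, MARCO myeloid-like and dendritic-like in both libraries. MARCO myeloid-like cells stood at 1151 CPM (987 to 1333) and dendritic-like cells at 973 CPM (925 to 1022) in the fresh library, where their intervals overlapped. In the cryopreserved library they stood at 2393 CPM (2233 to 2562) and 859 CPM (818 to 902).

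C1q varied strongly among macrophage-like cells. Per cell, the summed level of the chains ran from 0 over a median of 7993 to 43220 CPM in the 140 fresh cells, and from 0 over a median of 12944 to 49555 CPM in the 235 cryopreserved cells. No C1q UMI was found in 5 fresh and 7 cryopreserved cells, and 110 (78.6%) and 208 (88.5%) cells held at least 10. The cryopreserved cells had the higher median although their median depth, 7288 UMIs, was below the 8279 UMIs of the fresh cells. Thinned to 1000 UMIs per cell, 90.4% (84.2% to 94.8%) of fresh and 94.4% (90.7% to 97.0%) of cryopreserved macrophage-like cells kept a C1q UMI, with 4 and 2 shallower cells left out, against 96.4% and 97.0% before thinning. The thinned share was 0.496% and 0.512% in fibroblast-like cells, and 0% and 0.787% in T or NK-like cells, which serve as the background.

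**Figure D2:**
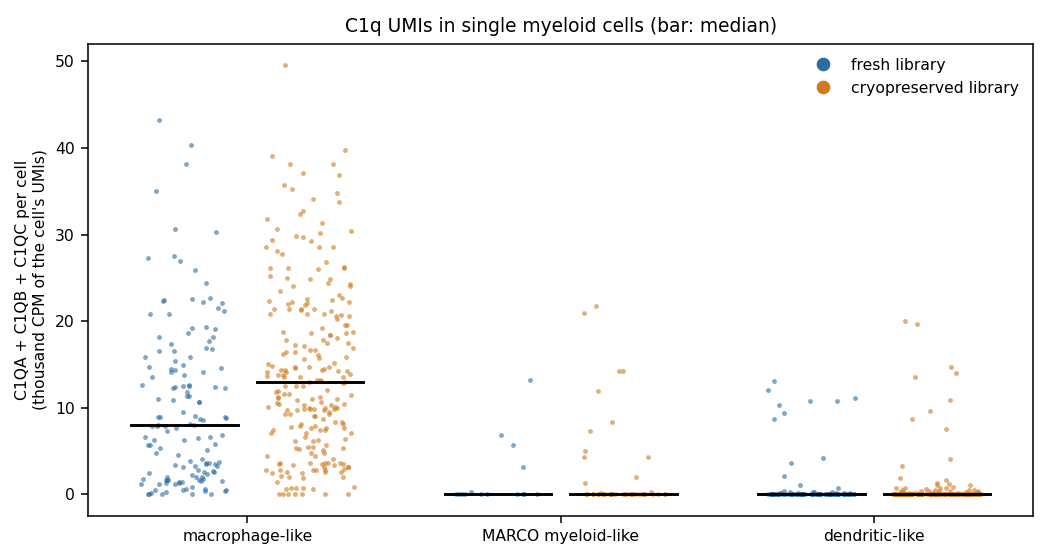
C1q level (C1QA, C1QB and C1QC together, as CPM of the cell's own UMIs, with the axis in kilo-CPM) in each macrophage-like, MARCO myeloid-like and dendritic-like cell of the fresh and the cryopreserved library; each point is a cell and the bar is the class median. Macrophage-like cells spread widely around medians of 7993 and 12944 CPM, and the median of the other myeloid classes is 0.

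The chains were found together. All 3 were detected in 119 of 140 fresh (85.0%) and 218 of 235 cryopreserved (92.8%) macrophage-like cells. Across these cells, which share a library and differ in depth, Pearson's r of the log levels was 0.89 and 0.85 for C1QA with C1QB, 0.83 and 0.83 for C1QA with C1QC, and 0.85 and 0.85 for C1QB with C1QC. The proportions of the chains were similar but not equal between libraries. Of the C1q UMIs in macrophage-like cells, C1QA made up 42.7% (41.98% to 43.5%) in fresh and 38.1% in cryopreserved cells, C1QB 34.1% and 38.3%, and C1QC 23.2% and 23.6%. Dendritic-like cells had a larger C1QC proportion, with 27.7% (25.5% to 29.9%) and 29.4% (27.2% to 31.7%). The 5 dendritic-like cells richest in C1q held 60.4% and 53.8% of these UMIs. These intervals leave out spread between cells, so they cannot show a difference between the classes. In all classes outside the 3 myeloid ones together, C1QA made up 39.2% (33.1% to 45.6%) of 250 fresh UMIs and 45.7% (37.9% to 53.7%) of 164 cryopreserved UMIs, intervals that hold the macrophage-like values of their library. C1QC made up 17.7% (12.2% to 24.4%) of those cryopreserved UMIs. In fibroblast-like cells alone, C1QA made up 34.8% (23.5% to 47.6%) of 66 fresh and 56.9% (44.0% to 69.2%) of 65 cryopreserved UMIs. The second of these intervals does not hold the macrophage-like value of 38.1%. These intervals treat the UMIs as independent, but most of the 250 fresh ones came from very few cells. There, 1 endothelial-like cell held 92.7% of the 109 UMIs of its class, and 1 keratinocyte-like cell held 89.1% of 64. The fresh proportions outside the myeloid classes therefore rest largely on these cells.

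**Figure D3:**
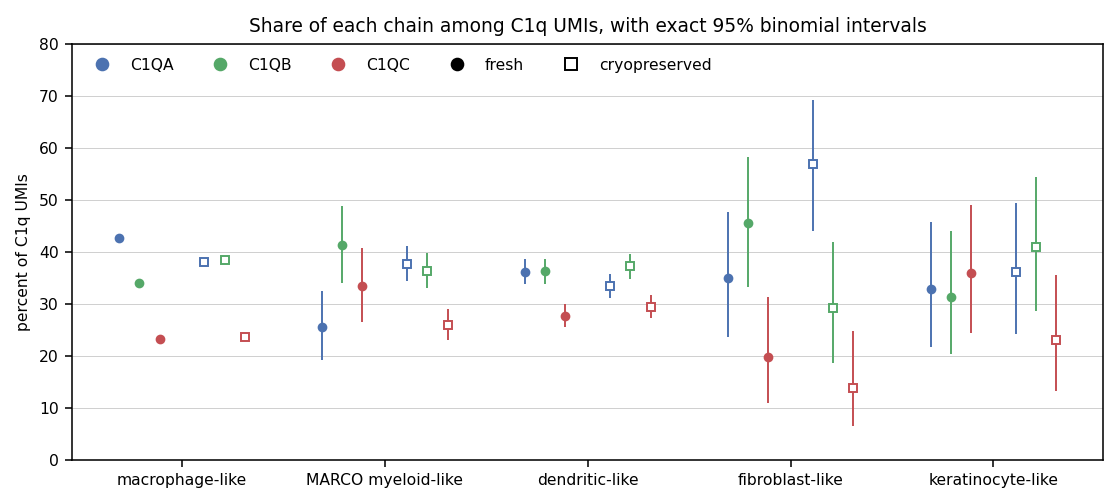
Percent of the C1q UMIs of each class (macrophage-like, MARCO myeloid-like, dendritic-like, fibroblast-like and keratinocyte-like) that belong to C1QA, C1QB and C1QC, with exact 95% binomial intervals; filled circles are fresh and open squares cryopreserved cells. In macrophage-like cells C1QC stays at 23.2% and 23.6%, while C1QA and C1QB stand at 42.7% and 34.1% in fresh and at 38.1% and 38.3% in cryopreserved cells.

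In the dendritic-like class the C1q RNA came from a small set of cells. Of 106 fresh and 182 cryopreserved cells, 13 (12.3%) and 20 (10.99%) held at least 10 C1q UMIs, and together these cells held 97.8% and 94.5% of the C1q UMIs of the class. None of them was among the 6% of cells with the highest doublet scores. As a set, these same cells also carried most of the class's C3. In them C3 stood at 217 CPM (44 UMIs) in the fresh and 77.3 CPM (20 UMIs) in the cryopreserved library, against 2.12 and 3.02 CPM in the 93 and 162 other cells of the class. The C3 levels rested on few cells. In the whole class only 3 fresh and 2 cryopreserved cells held at least 3 C3 UMIs. The richest cell held 16 of the 47 fresh and 9 of the 25 cryopreserved C3 UMIs. Of the 7 measured dendritic markers, CCR7 and BATF3 were higher in the C1q-rich cells of both libraries, CD207, EPCAM and FLT3 were lower, and FSCN1 and CCL22 differed in direction. Of the 8 macrophage markers, MRC1, CSF1R, STAB1, F13A1 and CD68 were higher in both libraries, CD209 was lower, and CD163 and MSR1 differed in direction. CCR7, the homing receptor of migrating dendritic cells, stood at 1503 and 1864 CPM in the C1q-rich cells and at 741 and 526 CPM in the others. CD207, the langerin gene of Langerhans cells, stood at 0 and 50.3 CPM against 231 and 274 CPM. CD14, a monocyte and macrophage receptor, stood at 355 and 151 CPM against 11.3 and 22.4 CPM. CSF1R, the receptor for macrophage growth factors, stood at 552 and 472 CPM against 249 and 257 CPM, and FLT3, the growth factor receptor of dendritic cells, at 212 and 159 CPM against 352 and 213 CPM. CD163, a macrophage scavenger receptor, stood at 187 and 7.74 CPM against 33.3 and 54.4 CPM. The C1q-rich cells had medians of 16008 and 12433 UMIs against 14372 and 9244 in the others, and whether some hold RNA of more than 1 cell was not tested beyond the doublet scores. The cut of 10 UMIs was chosen after the values had been seen, so these are descriptions. Their class also depended on the clustering. With the libraries merged without integration the macrophage-like class grew to 155 fresh and 246 cryopreserved cells and held 97.1% and 96.5% of the C1q UMIs, while the dendritic-like class fell to 86.5 and 140 CPM of C1q and to 2.15 and 3.37 CPM of C3.

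The MARCO myeloid-like class, named from MARCO, CD300C, S100A12, TREM1 and CD14, was small, with 15 fresh and 43 cryopreserved cells. C1QA stood there at 292.5 and 902 CPM, C1QB at 475 and 871 CPM and C1QC at 383.5 and 620 CPM. These levels rested on few cells, since 5 cells held 100% of the fresh and 66.0% to 73.8% of the cryopreserved UMIs of each chain. The median cell held 0 C1q UMIs in both libraries.

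By class, C3 was distributed differently from C1q, although the C1q-rich dendritic-like cells described above also held C3. On total UMIs C3 was highest in T or NK-like cells, at 59.2 CPM (45.5 to 75.8) in fresh and 53.1 CPM (41.5 to 66.8) in cryopreserved cells, from 63 and 72 UMIs. Fibroblast-like cells followed at 42.2 CPM (39.1 to 45.6) and 39.7 CPM (36.7 to 42.8), from 666 and 652 UMIs. The T or NK-like level was 1.40-fold (1.07 to 1.82) and 1.34-fold (1.03 to 1.71) that of fibroblast-like cells, so the order held in both libraries but with intervals that reached close to 1. These ratios use total UMIs. The TMM factors on the total were 1.10 and 1.05 in T or NK-like and 0.831 and 0.808 in fibroblast-like cells. Scaling by them would bring both ratios nearer to equal levels and both lower bounds below 1. Which of these classes is higher was thus not settled, and full scaled intervals were not computed. Dendritic-like cells had 29.1 CPM (21.4 to 38.7) and 13.1 CPM (8.46 to 19.3), and MARCO myeloid-like cells 6.50 and 17.3 CPM from 1 and 6 UMIs, so these classes changed places between libraries with intervals that overlapped in each. In macrophage-like cells C3 stood at 1.47 CPM (2 UMIs) and 3.68 CPM (7 UMIs), and mast-like cells held 0 UMIs in both libraries. By number of molecules fibroblast-like cells led, with 83.0% and 84.2% of all C3 UMIs, against 7.86% and 9.30% in T or NK-like cells.

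Against macrophage-like cells of the same library, C3 was 40.2-fold (10.7 to 339) higher in fresh and 14.4-fold (6.65 to 37.1) higher in cryopreserved T or NK-like cells. It was past a 2-fold difference in that direction in both libraries, as were 21.9% of 5805 and 23.4% of 6565 counted genes. With the libraries merged without integration the macrophage-like class had 28.8 and 12.8 CPM of C3, and these ratios were 2.06 and 4.15. The macrophage-like over fibroblast-like log2 ratio of C3 was -4.84 (-7.89 to -2.98) and -3.43 (-4.75 to -2.38). C3 was also past a 2-fold difference there, on the side where 26.8% of 10888 and 28.7% of 10964 genes stood higher in fibroblast-like cells. After the same merging this log2 ratio was only -0.55 in the fresh library, which ends the call there, and -1.63 in the cryopreserved library.

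C3 of T or NK-like cells was thinly spread, with at most 3 UMIs in a cell. A C3 UMI was found in 33.8% and 20.9% of these cells, and the 5 cells richest in C3 held 19.0% and 16.7% of the C3 UMIs of the class. After thinning to 1000 UMIs, 6.90% of fresh and 7.48% of cryopreserved T or NK-like cells and 2.81% and 3.14% of fibroblast-like cells held C3, against 0.735% and 0% of macrophage-like cells. The 49 fresh and 53 cryopreserved T or NK-like cells with C3 had 298 and 219 CPM of the collagen genes COL1A1, COL1A2 and COL3A1 together, against 610 and 454 CPM in T or NK-like cells without C3. The median cell had 235 CPM with and 258 CPM without C3 in the fresh library, and 214 and 194 CPM in the cryopreserved library, so the medians differed in direction between the libraries. Their T or NK markers together stood at 1686 and 2410 CPM, against 2482 and 2559 CPM in the cells without C3. The cells with C3 held 0.573 and 0.947 C3 UMIs per collagen UMI, against 0.00302 and 0.00257 in fibroblast-like cells with C3. Both sets of cells were chosen for holding a C3 UMI, which by itself raises this ratio. It was not computed over all cells of either class, and the source of the C3 RNA was not tested. The 8 fibroblast markers together stood at 632 and 448 CPM in T or NK-like cells and at 121406 and 133911 CPM in fibroblast-like cells. Of the 3 T or NK-like clusters, the largest had 65.6 and 54.1 CPM of C3, the one led by GNLY, a cytotoxic granule protein, had 58.3 and 45.3 CPM, and the smallest, of 8 and 13 cells, had 35.0 and 78.3 CPM.

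Among fibroblast-like cells C3 was a matter of cluster. The cluster led by CCL19, a chemokine that draws lymphocytes and dendritic cells, had 105 CPM of C3 in fresh and 127 CPM in cryopreserved cells. The cluster led by SFRP4, GFPT2 and PTX3, the last a soluble pattern recognition protein, had 113 and 76.1 CPM. The cluster led by CPZ and COL1A2 had only 1.36 and 1.03 CPM. The CCL19 cluster made up 16.2% of fresh and 12.1% of cryopreserved fibroblast-like cells and held 30.8% and 23.9% of the C3 of the class. The PTX3 cluster made up 10.8% and 15.7% of these cells and held 35.7% and 38.7%. The clusters led by MYOC and by SFRP4 with COL1A2 were intermediate, at 37.9 and 30.2 CPM and at 30.4 and 26.6 CPM. In the cluster led by COCH the cryopreserved level of 28.8 CPM came from 19 UMIs, of which 17 were in 1 cell.

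**Figure D4:**
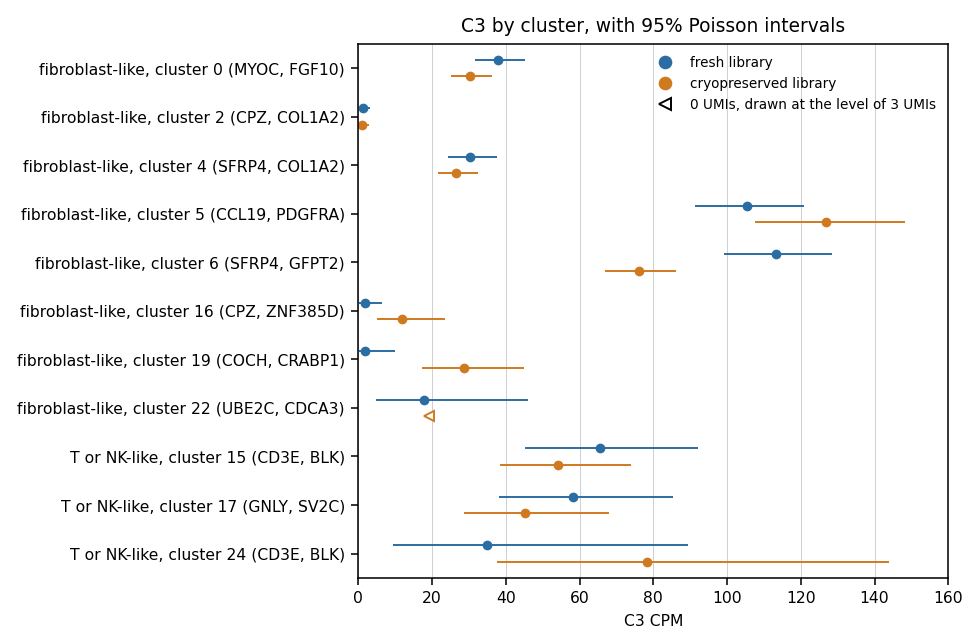
C3 level in CPM (linear axis) in each fibroblast-like and T or NK-like cluster, given by number and leading genes, in the fresh and the cryopreserved library, with 95% Poisson intervals for counting error; open triangles mark 0 UMIs. The CCL19 cluster (105 and 127 CPM) and the cluster led by SFRP4, GFPT2 and PTX3 (113 and 76.1 CPM) stand highest among fibroblast-like clusters, and the CPZ cluster with COL1A2 (1.36 and 1.03 CPM) near the floor.

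Within these clusters C3 was carried by a minority of cells. At least 3 C3 UMIs were found in 69 fresh (5.68%) and 77 cryopreserved (4.90%) fibroblast-like cells, which held 80.2% and 75.9% of the C3 of the class. The richest cell held 29 and 39 UMIs.

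Between the libraries, the C1q chains of macrophage-like cells were higher after cryopreservation, but less than 2-fold. The cryopreserved over fresh log2 ratio was 0.28 (0.24 to 0.32) for C1QA, 0.62 (0.57 to 0.66) for C1QB and 0.47 (0.42 to 0.53) for C1QC, where the median of all 6168 counted genes was -0.08. Among the counted genes these ratios stood at percentile 79.6 for C1QA, 94.0 for C1QB and 89.5 for C1QC. None of these 3 chains passed a 2-fold difference, against 3.68% of the counted genes. At so low a share, none among 3 genes says little about the chains. The counted genes past 2-fold split into 90 that stood above and 137 that stood below their fresh level, and into 111 and 111 with TMM factors. C3 had too few UMIs in macrophage-like cells to be counted. In dendritic-like cells the C1QA ratio had the opposite sign, -0.29 (-0.46 to -0.12), and those of C1QB and C1QC were -0.14 and -0.09. With the libraries merged without integration these dendritic-like ratios were 0.09, 1.03 and 1.31, so their sign depended on which cells the class took in. In the small MARCO myeloid-like class the ratios were 1.63 (1.17 to 2.11) for C1QA, 0.88 (0.50 to 1.26) for C1QB and 0.69 (0.27 to 1.13) for C1QC. In the same class the macrophage markers together stood at 1983 (fresh) and 1303 CPM (cryopreserved) and those of differentiated keratinocytes at 19.5 and 1753 CPM, and their part in these ratios was not tested. Over all kept cells the ratios were 0.55 for C1QA, 0.86 for C1QB and 0.71 for C1QC, larger than within macrophage-like cells. Macrophage-like cells made up 5.57% of the cryopreserved against 5.05% of the fresh cells, and held 5.18% against 4.21% of all UMIs. The part of these shares in the ratios was not tested.

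C3 differed little between the libraries in the classes that held most of it. Its cryopreserved over fresh log2 ratio was -0.09 (-0.25 to 0.07) in fibroblast-like and -0.16 (-0.67 to 0.35) in T or NK-like cells. Neither C3 nor C1QA, the members with enough UMIs to be counted in fibroblast-like cells, passed a 2-fold difference there, as 2.47% of 11840 counted genes did. In dendritic-like cells C3 was lower after cryopreservation, with a log2 ratio of -1.15 (-1.92 to -0.42), from 47 and 25 UMIs. Without the 5 cells richest in C3, the dendritic-like levels were 3.89 and 3.79 CPM. Within the fibroblast-like class, the SFRP4 and PTX3 cluster had a ratio of -0.57 (-0.83 to -0.31). Since each condition is 1 library, condition, animal, sorting and library preparation cannot be told apart in any of these ratios.

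The genes whose levels followed the members most closely over the 10 classes in both libraries (20 points, 11691 genes with at least 200 UMIs) were named by Pearson's r of log2(CPM + 1). For C1QA these were C1QB and C1QC, both at 0.98, then CD163 and SLC46A2 at 0.96 and SCIMP at 0.95. C1QB and C1QC had almost the same lists, with TLR2, a receptor for bacterial lipoproteins, at 0.96 for C1QB. For C3 the likeness was weaker, with STRIP2 at 0.85, IL16, a chemoattractant of CD4+ cells, at 0.83, MCOLN2 at 0.82 and WHRN at 0.76. The points share libraries and classes, so r is a description only.

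The wider complement list held 50 genes, of which 40 had a row and 32 had at least 50 UMIs over both libraries. In both libraries 10 of the 32 were highest in macrophage-like cells, 7 in fibroblast-like cells, 3 in lymphatic-like cells, 2 each in MARCO myeloid-like and endothelial-like cells and 1 each in dendritic-like, SMC-like and T or NK-like cells, C3 being the last. The other 5 had a different highest class in each library, and none was highest in keratinocyte-like cells in both. The share of all genes that is highest in each class was not counted, so these numbers describe the list only. Of the other complement genes with enough UMIs to be counted between macrophage-like and fibroblast-like cells (17 fresh, 19 cryopreserved), 7 and 8 stood at least 2-fold higher in macrophage-like cells and 8 and 8 at least 2-fold higher in fibroblast-like cells, beside the 18.0% and 26.8% of all counted genes in the fresh library and the 16.6% and 28.7% in the cryopreserved one. The 7 and 8 higher in macrophage-like cells included COLEC12, CFP, C4BPA and C5AR1, and the same 8 were higher in fibroblast-like cells of both libraries, C4A, FCN2 and SERPING1 among them. The minimum of 50 UMIs was over both classes together, so a gene could be counted through 1 class alone. In macrophage-like cells MASP1, FCN2, C4A, CFB, C7 and CSMD1 stood below the level of 3 UMIs (2.21 and 1.58 CPM). VSIG4 had 0 UMIs in fibroblast-like cells. The size of these ratios is therefore uncertain. Between libraries, none of the 10 counted in macrophage-like cells and 1 of the 17 counted in fibroblast-like cells, C1RL, passed a 2-fold difference. Over all counted genes these shares were 3.68% and 2.47%. C1RL was low in fibroblast-like cells, at 1.14 and 2.37 CPM.

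Beside the C1q chains, 3 of the 8 initiators and early proteases with at least 50 UMIs were highest in macrophage-like and 3 in fibroblast-like cells of both libraries. Of the other two, MASP2 was highest in endothelial-like cells, at 7.65 and 11.3 CPM, and COLEC11 in lymphatic-like cells, at 9.89 and 16.7 CPM. Those highest in macrophage-like cells were COLEC12, C1RL and C2. C1RL (2.21 and 9.99 CPM) and C2 (3.68 and 4.21 CPM) were low there. In fresh macrophage-like cells 3 UMIs give 2.21 CPM, so their place rests on few UMIs. COLEC12, a scavenger collectin, stood at 496 and 293 CPM in macrophage-like and at 116 and 91.4 CPM in fibroblast-like cells. C4A, encoding the C4 that C1s cuts, stood at 155 and 161 CPM in fibroblast-like and at 0.736 and 1.05 CPM in macrophage-like cells. FCN2, a ficolin of the lectin pathway, stood at 55.9 and 72.4 CPM in fibroblast-like cells and had 0 UMIs in macrophage-like cells of either library. MASP1, a protease of the lectin pathway, stood at 13.7 and 10.9 CPM in fibroblast-like cells. C1q and the C4 gene were thus counted in different classes of the same skin.

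For the alternative pathway, CFD, the factor D that cuts factor B, stood at 1360 and 1424 CPM in fibroblast-like and at 917 and 1218 CPM in macrophage-like cells, far above C3 in both. CFP, encoding properdin, was highest in macrophage-like cells with 143 and 179 CPM. CFB, encoding factor B itself, stood at 22.2 and 16.7 CPM in lymphatic-like and at 8.43 and 7.72 CPM in fibroblast-like cells. Terminal genes were low throughout, and C7, the most abundant of them, stood at 11.2 and 12.4 CPM in fibroblast-like cells. C5, whose fragment C5a attracts myeloid cells, was highest in SMC-like cells of the fresh library, at 13.5 CPM, and in keratinocyte-like cells of the cryopreserved library, at 4.41 CPM. C8G reached no more than 3.89 CPM in any class.

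Among regulators, C4BPA, encoding a chain of the C4b-binding protein, had the highest level of the list, with 8078 and 12816 CPM in macrophage-like cells, above each C1q chain, and 21.9 and 22.6 CPM in fibroblast-like cells. The RefSeq annotation has 2 entries of that name, whereas the UMIs were counted on the Ensembl annotation, with 1 row (ENSSSCG00000015662). How reads of a further copy were counted was not tested, so this level is uncertain. SERPING1, the inhibitor of C1r and C1s, stood at 678 and 815 CPM in fibroblast-like and at 97.9 and 150 CPM in macrophage-like cells. CLU, encoding clusterin, stood at 65.9 and 59.7 CPM in fibroblast-like cells. CFI, encoding the factor I that cuts C3b, was highest in dendritic-like cells, at 9.28 and 15.2 CPM. CSMD1, a membrane regulator, stood at 13.1 and 6.69 CPM in fibroblast-like cells and at 1.24 and 61.8 CPM in lymphatic-like cells. In fresh lymphatic-like cells 3 UMIs give 3.71 CPM, so the fresh level there is below the floor. How the cryopreserved CSMD1 UMIs were spread over the 135 lymphatic-like cells was not examined. Of the receptors, C5AR1, for the fragment C5a, stood at 538 and 513 CPM in macrophage-like cells. ITGB2 and ITGAM, which together form complement receptor 3 for C3 fragments, were highest in MARCO myeloid-like cells with 312 and 407 CPM and with 221 and 161 CPM. C1QBP, a mostly mitochondrial protein first isolated by its binding to C1q, was found in every class, from 21.0 to 88.2 CPM in fresh and from 36.2 to 107 CPM in cryopreserved cells.

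**Figure D5:**
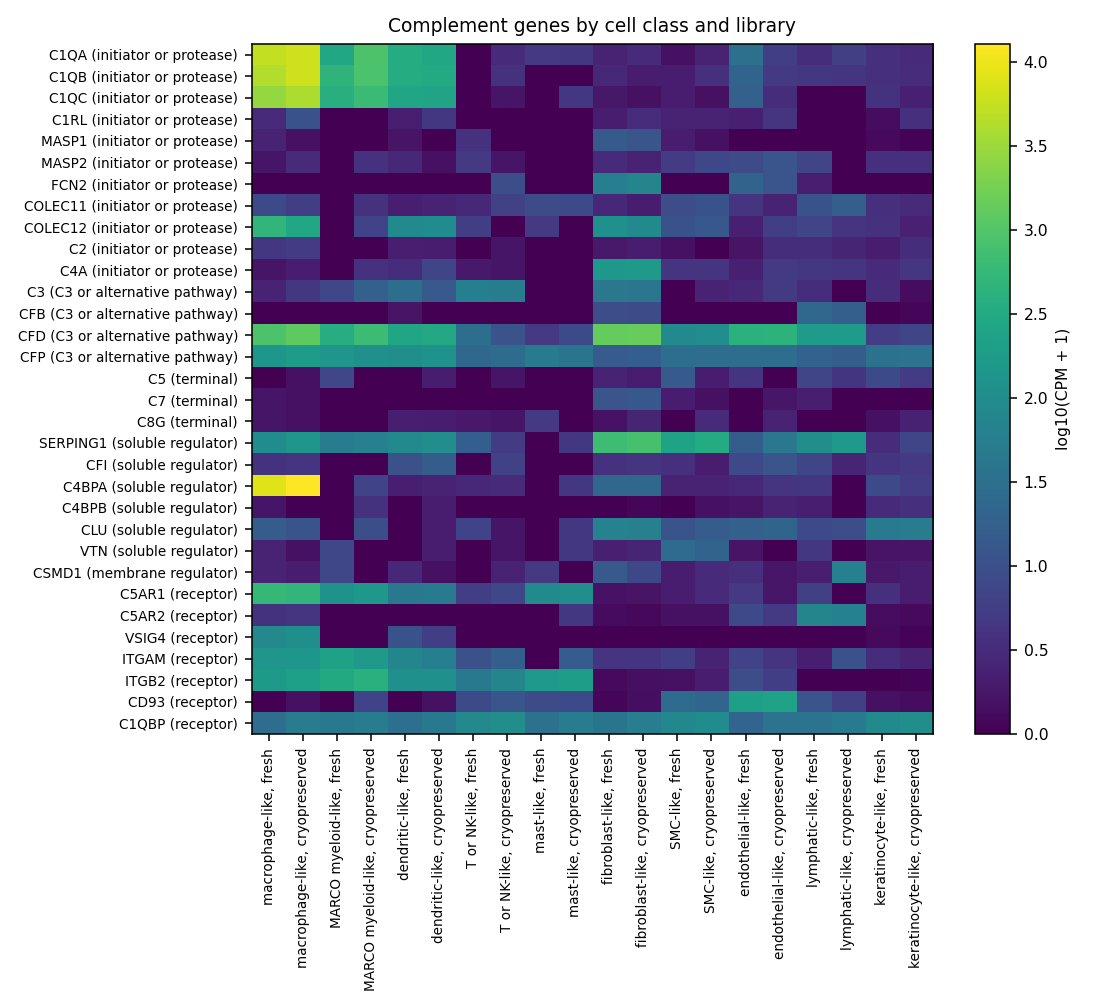
Level of the complement genes with at least 50 UMIs, by role, in each cell class of both libraries, as color on a log10(CPM + 1) scale. C1QA, C1QB, C1QC and C4BPA are brightest in macrophage-like cells, and C4A, CFD and SERPING1 in fibroblast-like cells.

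Fibroblast-like clusters also differed in the genes around C3. CFD stood at 3690 and 3530 CPM in the CCL19 cluster and at 2058 and 2204 CPM in the SFRP4 and PTX3 cluster, the clusters with most C3. SERPING1 stood at 1549 and 1783 CPM in the CCL19 cluster. C4A instead was highest in the MYOC cluster, with 443 and 441 CPM, where C3 was intermediate.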

How the data were processed

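Cells of pig skin were sequenced with the 10x Genomics 3′ kit V3 as 1 fresh and 1 cryopreserved library, grouped by title and treatment label. The authors mapped reads to Sscrofa11.1 with its Ensembl annotation (release not given in the sources used here) by Cell Ranger 4.0.0 and STAR 2.5.1b, and deposited raw UMI counts per gene and barcode, used here as deposited. Barcodes above the study's maxima of 4500 genes, 30000 UMIs or 10% mitochondrial UMIs (13 genes) were left out. Doublets were otherwise not removed. Scrublet scores were used only as an alternative, since it called 3 and 35 cells. Libraries were integrated with Seurat 5.3.0 (R 4.3.3; 2000 features without the 40 measured complement genes, 30 dimensions, resolution 0.8). A cluster was named where at least 3 markers were found in at least 10% of its cells and at 2 times the median cluster level. This rule, the merging of both keratinocyte lists and the removal of ITGAM from the markers followed a first look at the clusters.

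CPM were gene UMIs over all UMIs of the class, with exact Poisson or Clopper-Pearson intervals of 95%, and ratios had conditional exact intervals (scipy 1.17.1). PCR duplicates are removed by UMIs, and the intervals cover counting error only. Genes with at least 50 UMIs over both groups were counted as different from 2-fold on. A count of 0 allows up to 3 counts. Cells were thinned to 1000 UMIs for shares of cells. With 1 library per condition there was no test. Alternatives were edgeR 4.0.16 TMM factors, DESeq2 1.42.0 size factors, other cell filters, clusterings, thinning depths, minima and the removal of the richest or highest-scored cells. On simulated counts with known changes between macrophage-like libraries, 100% of 178 counted changed genes were recovered and 0.152% of unchanged genes were called. Between fresh macrophage-like and fibroblast-like cells these were 98.0% of 197 and 2.94%. These counts were drawn with counting error only, and the planted changes were larger than the 2-fold cut. High recovery thus followed from the setting, and the simulation cannot speak to spread between libraries, animals or cells. The members and lists were chosen with earlier results of these data known. Named genes were the members, up to 4 others per complement role by total UMIs and the 5 genes most like each member. Other named genes lead a cluster or mark a class. Upstream sequences came from RefSeq for Sscrofa11.1.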

Additional observations from a re-analysis of the deposited data

Results flagged for a closer look

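Barcodes above a maximum, 1604 of the fresh and 637 of the cryopreserved library, were left out of the main comparisons. They entered only the alternatives with wider cell filters, but held member UMIs above the 3 that a count of 0 allows. C1QA had 1157 (fresh) and 1026 (cryopreserved) UMIs there, that is 55.1 and 185.5 CPM, against 248 and 364 CPM in all kept cells. C1QB had 1008 and 1022 UMIs, C1QC 609 and 689, and C3 340 and 32. The 5 richest of these barcodes held 74.2% and 71.1% of their C1QA.

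The cryopreserved over fresh log2 ratio of C1QA was 0.28 in macrophage-like and -0.29 in dendritic-like cells, opposite signs whose difference was not tested, since each condition is 1 library. In the dendritic-like class the ratio was 0.09 when the libraries were merged without integration.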

How the results depend on the processing

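Of 2106 values under alternative settings, 1825 stayed within the counting interval or within 1.5 times the reported count, 280 moved beyond it and 1 reversed. For summed C1q in macrophage-like and C3 in fibroblast-like cells, 17 of 32 levels and 1 of 8 shares of cells stayed. Of their shares of UMIs 24 of 28 stayed, and of their ratios between libraries 15 of 18. The macrophage-like over fibroblast-like ratios of C1q and C3 stayed in 34 of 36, and counts of genes past 2-fold in 19 of 32. Some of the alternative settings could hardly move a value. At resolution 1.2 every class kept its number of cells, and at resolution 0.4 only the fibroblast-like class changed, to 1217 and 1592 cells. C1QA, C1QB and C1QC were highest in macrophage-like cells and C3 in T or NK-like cells under each alternative cell filter, clustering and removal of cells. The TMM and DESeq2 factors were not applied to this order of classes. The reversed value was the C1QC ratio between libraries in keratinocyte-like cells, which was 0.70 without the 6% of cells with the highest Scrublet scores. In macrophage-like cells the summed C1q level was 11548 (fresh) and 15962 CPM (cryopreserved) over all barcodes, 12163 and 16885 CPM without the mitochondrial limit, 11579 and 16734 CPM with merged libraries, 12824 and 17493 CPM without the highest Scrublet scores, 11323 and 16451 CPM without the 5 richest cells, and 12771 CPM (fresh) with complement genes kept as features. C3 in fibroblast-like cells was 37.8 and 35.8 CPM over all barcodes and 34.3 and 32.6 CPM without the 5 richest cells. The C1q held by macrophage-like cells was 92.8% (cryopreserved) over all barcodes and 97.1% and 96.5% with merged libraries, and the C3 held by fresh fibroblast-like cells was 86.3% over all barcodes. With merged libraries the C3 macrophage-like over fibroblast-like log2 ratio was -0.55 and -1.63. The C1q log2 ratio between libraries in macrophage-like cells was 0.53 with merged libraries, 0.52 with TMM and 0.49 with DESeq2 factors. Unthinned, 14.3% and 12.5% of fibroblast-like cells held C3, and at 2000 UMIs 4.77% and 5.15%. For C1q in macrophage-like cells these were 96.4% and 97.0% unthinned and 97.3% (cryopreserved) at 2000 UMIs. Counts of genes past 2-fold at a minimum of 200 UMIs were 1210 (macrophage-like over fibroblast-like) and 525 (T or NK-like over macrophage-like) in the fresh and 1158 and 689 in the cryopreserved library, 2053 for fibroblast-like over macrophage-like cells in the cryopreserved library, and 46 and 71 between libraries in macrophage-like and fibroblast-like cells. With no minimum they were 8915 and 4197, 8263 and 4891, and 4541 and 4197 between libraries. Apart from changes that follow from the minimum, the thinning or the cells left out, the cause was not tested. No paired analysis was possible because each condition is 1 library, and no library could be left out for the same reason. Depth limits the values of C3 in macrophage-like cells and of C1q outside the myeloid classes, which rest on few UMIs.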

Other observations

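Some complement genes outside the named ones, chosen here after their values were seen, marked classes in which the C1q chains and C3 were low. CD93, a receptor of endothelial and myeloid cells, stood at 215 and 229 CPM in fresh and cryopreserved endothelial-like cells and at no more than 26.5 CPM in any other class. C5AR2, the second receptor for C5a, stood at 76.6 and 63.5 CPM in lymphatic-like cells. VTN, encoding vitronectin, an inhibitor of the terminal complex, stood at 26.0 and 19.7 CPM in SMC-like cells. VSIG4, a macrophage receptor for C3 fragments, instead shared its highest class with the C1q chains. It stood at 85.4 and 109 CPM in macrophage-like cells and at most 9.90 CPM in any other class. Unlike the C1q chains, it had 0 UMIs in MARCO myeloid-like cells of both libraries.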
